A study of Mus musculus with 6 samples.

Results

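An H3K4me3 domain with H3K36me3 on both sides is a short stretch of chromatin carrying trimethylated lysine 4 of histone H3 with trimethylated lysine 36 to its left and to its right. Such flanked domains were chosen from reads summed over CD4 and CD8 libraries on mouse chromosomes 1 to 19 (build mm9). Bins of 200 bp counted as enriched from 4 times the RPM (a read count scaled to the size of its library) of the input, enriched bins no more than 400 bp apart were joined, and a domain needed 20 reads and a width of 1000 to 2800 bp. It was kept where H3K36me3 had at least 2 times the input RPM in the 20 kb before and in the 20 kb after, and where the sides differed less than 4-fold in H3K36me3 reads. The rule kept 1704 of the 9218 domains in that width range (18.5%) and of the 17327 domains of any width (9.83%). It left 4511 domains of that width with H3K36me3 on 1 side, 2975 with it on no side, and 28 whose sides both passed but lay 4-fold or more apart.

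The chromatin was that of mature T cells taken from C57BL/6 thymus, CD4+ in one set of libraries and CD8+ in the other, and the labels name no treatment, age or altered allele. Micrococcal nuclease, which cuts between nucleosomes, was used to make mononucleosomes, and rabbit polyclonal antibodies against H3K4me3 or H3K36me3 were used for the precipitation. Each cell type also had an input, for which no antibody was used. The 6 libraries are 6 groups of 1 library, so no value has a replicate, no p-value is given, and every interval covers counting error only.

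H3K4me3 is laid down by methyltransferases that act at active promoters, and its level falls off within a short distance downstream of the start of transcription. H3K36me3 is placed by an enzyme that travels with elongating RNA polymerase II, so it lies over the bodies of transcribed genes and is usually low at their starts. A promoter with a transcribed body on one side only is the common arrangement. Promoters from which genes run in both directions, starts that follow shortly after the end of another gene, and starts inside a transcribed gene all place H3K36me3 on both sides of one H3K4me3 domain.

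On chromosomes 1 to 19 the libraries held 9913123 (CD4 input), 10491937 (CD4 H3K4me3), 6599587 (CD4 H3K36me3), 9716101 (CD8 input), 11878642 (CD8 H3K4me3) and 6604331 (CD8 H3K36me3) reads. The number of distinct start positions was 54.3% of the number of reads for CD4 H3K4me3 and 31.3% for CD8 H3K4me3, while H3K36me3 had 91.1% (CD4) and 91.7% (CD8) and the inputs 97.2% and 97.6%. The H3K4me3 libraries thus repeated start positions far more than the others, and the CD8 library more than the CD4 library. With an input put in the place of H3K36me3, 0 domains passed the rule for the sides with the CD4 input and 0 with the CD8 input. Marker genes of the cell types were not read, and regions are named by position only, because genes of build mm9 were not used here.

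The values that selected the flanked domains are given as a description. Their median width was 1400 bp. The pooled H3K36me3 level of the weaker side had a median of 3.16 times input and that of the stronger side 5.08 times input. The stronger side held a median of 1.5 times the reads of the weaker side, from 1 to 3.93 times, and 402 flanked domains (23.6%) had sides at least 2-fold apart. These levels follow from the thresholds. Just inside the fold of 2 lay chr2:162880001-162881200 with 2.0015 on its right side, and just outside lay chr17:28465201-28466800 with 1.9996. Just inside the ratio of 4 lay chr5:125885001-125887400 with sides 3.93-fold apart, and just outside lay chr6:124690201-124691800 with 4.02. At the edges of the width range, 280 flanked domains were 1000 bp wide and 34 were 2800 bp wide, while 223 domains of 800 bp and 25 of 3000 bp passed the rule for the sides.

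The rule pooled the cell types, and each was then read alone. The pooled level that had to reach 2 times input is made of these same reads, so high shares follow in part from the rule. Both sides reached 2 times input in CD4 alone at 1578 flanked domains (92.6%), in CD8 alone at 1562 (91.7%), and in each of the cell types at 1440 (84.5%). The side with more H3K36me3 was the same in CD4 and CD8 at 1455 (85.4%). Among the 840 whose sides were at least 1.5-fold apart in CD4, it was the same at 825 (98.2%). The log2 ratio of right over left side in CD4 and in CD8 had a Pearson r of 0.889 (Spearman 0.892) across the 1704 domains, which share their sequence, their input depth and, for 829 of them, part of the 20 kb stretches with another flanked domain. The uneven split of H3K36me3 between the sides was thus seen in both cell types, but this was not particular to flanked domains. The same side was ahead at 98.9% of domains with H3K36me3 on 1 side and at 81.8% of those with it on no side. Among those at least 1.5-fold apart in CD4 these shares were 99.9% and 95.1%.

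The region with the most H3K36me3 reads on its weaker side was chr12:88783401-88785400. Its left 20 kb held 465 reads in CD4 and 583 in CD8, and its right 20 kb 613 and 713. The inputs held 79 and 89 reads on the left and 91 and 112 on the right. Inside the domain H3K36me3 fell to 5 and 9 reads while H3K4me3 reached 1191 in CD4 and 1843 in CD8. The high reads of its sides are what it was chosen for; the level inside was not part of that choice.

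The most even sides among domains with no other H3K4me3 domain within 20 kb belonged to chr9:65308401-65309400. Its left side held 345 H3K36me3 reads in CD4 and 338 in CD8, and its right side 348 and 335. H3K4me3 reads were 667 and 1196, and H3K36me3 reads inside the domain were 3 and 2. The sides were equal in the pooled reads and within a few reads of each other in each cell type. The next most even such domains were chr5:145927401-145929000, chr1:66862401-66865000, chr17:29751401-29752800 and chr9:20263801-20265000, whose pooled sides differed by at most 1.01-fold in reads. Over input the sides were less even. The left was the higher at all of these domains, with the widest gap at chr5:145927401-145929000, 6.72 against 5.02 times input.

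**Figure D1:**
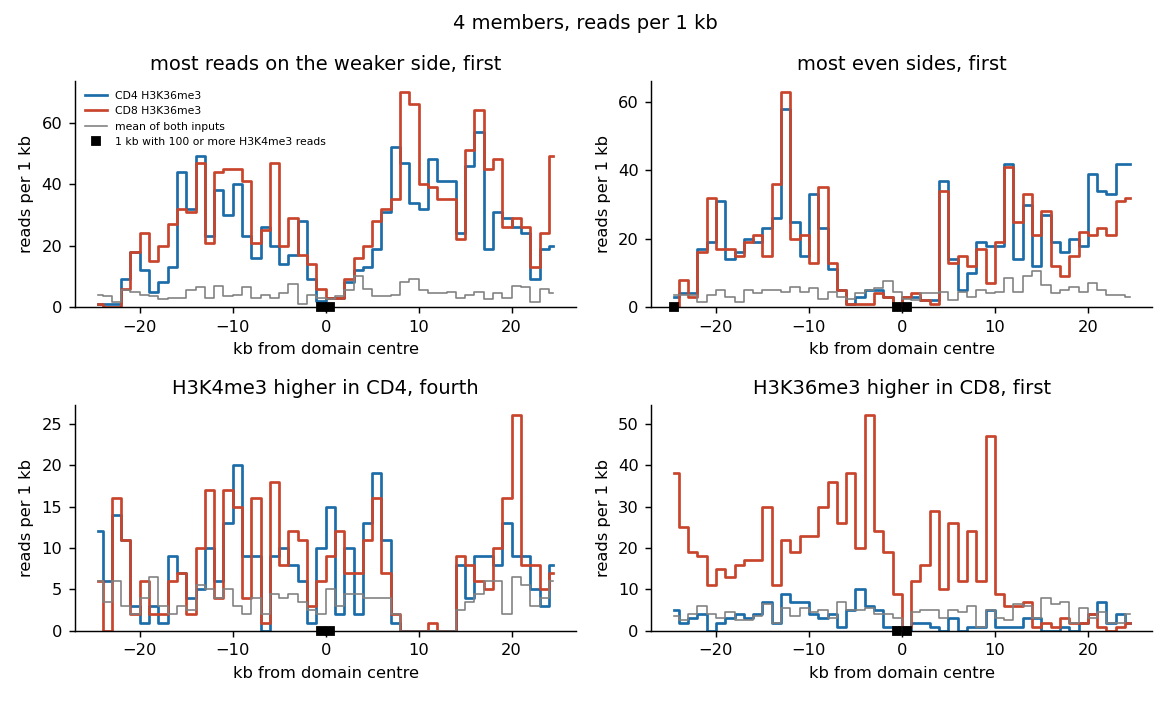
Reads per 1 kb (vertical) by distance in kb from the domain centre (horizontal) for 4 flanked domains, with CD4 H3K36me3 in blue, CD8 H3K36me3 in red, the mean of the inputs in grey and black squares where 1 kb held 100 or more H3K4me3 reads of both cell types. The upper panels show the region with the most reads on its weaker side and the one with the most even sides; the lower left panel shows a domain with 755 CD4 and 43 CD8 H3K4me3 reads, and the lower right panel one whose sides held 117 H3K36me3 reads in CD4 and 693 in CD8.

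H3K36me3 was at the level of the input inside the flanked domains and rose away from them. Summed over the 1704, the level inside was 0.952 times input in CD4 and 1.03 times in CD8, against 4.29 and 4.48 times on the sides. The pooled level inside was 0.224 times that of the sides (exact 95% interval 0.220 to 0.229). The corresponding ratio was 0.319 at domains with H3K36me3 on 1 side and 0.792 at domains with it on no side, and the rule sets the order of these denominators. The median flanked domain held 2 H3K36me3 reads inside in CD4 and 2 in CD8, and 105 (6.16%) held none. In reads per bp, the level inside was at most 0.25 of that of the sides at 1453 (85.3%), and it equalled or exceeded that of the sides at 20 (1.17%). The input was also thinner inside, at 0.691 of the density of the sides in CD4 and 0.571 in CD8, which the level over input takes into account.

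By 1 kb steps from the centre, with the side ahead in the other cell type turned to the right, CD4 H3K36me3 was 0.865 and 0.919 times input in the steps next to the centre. It reached 3.05 times at 3.5 kb on the weaker side and 3.97 times on the stronger side, and its maximum of 5.89 times lay 11.5 kb out. CD8 gave 0.903 and 0.983 times at the centre, 3.17 and 4.14 times at 3.5 kb, and a maximum of 6.27 times at 13.5 kb. At 2.5 kb this summed profile was above 2 times input on both sides in both cell types. Groups of flanked domains differed in how soon they passed that level, as described below. Domains with H3K36me3 on 1 side had a lower stronger side. It stood at 3.51 times input in CD4 and 3.81 times in CD8 when read 3.5 kb out, with maxima of 4.75 and 4.97 times. Their other side stayed below 2 times input out to 30 kb. Over its first 20 kb the definition of this class already sets a pooled level below 2 times input.

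**Figure D2:**
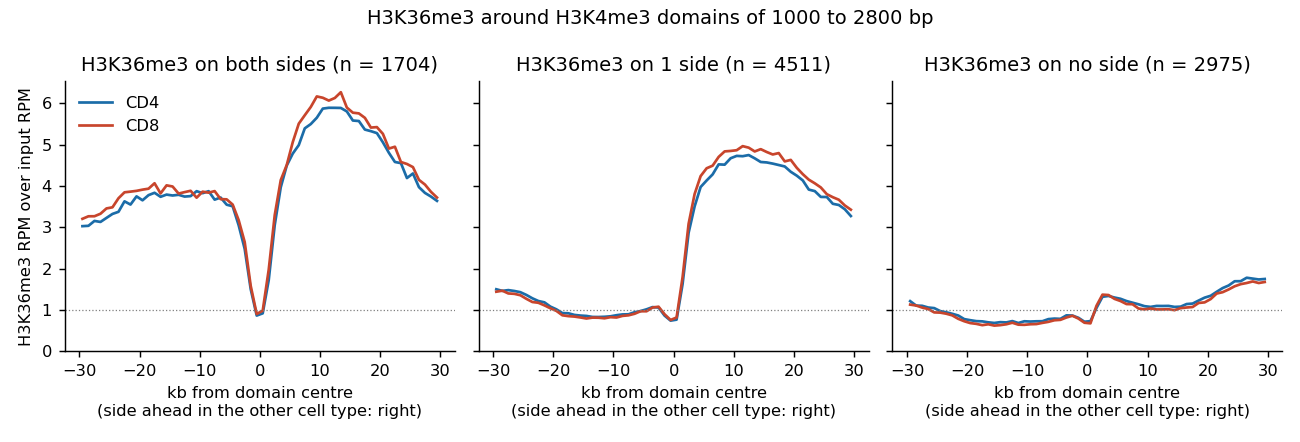
H3K36me3 RPM over input RPM (vertical) by distance in kb from the domain centre (horizontal), summed over domains of 1000 to 2800 bp with H3K36me3 on both sides, on 1 side and on no side, in CD4 (blue) and CD8 (red); the side ahead in the other cell type is on the right and the dotted line marks the input level. The flanked domains dip to 0.865 (CD4) and 0.903 (CD8) times input at the centre and rise on both sides.

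H3K36me3 did not end with the 20 kb that the rule read. In the stretch from 20 to 40 kb both sides still had 2 times input at 686 flanked domains (40.3%), and from 80 to 100 kb at 206 (12.1%). At domains with H3K36me3 on 1 side these shares were 14.9% and 9.89%, and at domains with it on no side 5.24% and 7.87%. The shares of the classes lay closer together with distance.

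The sides differed in how soon H3K36me3 rose. For each side the density in the first 3 kb beyond the domain was divided by that in the remaining 17 kb, and a side below 0.5 was called recessed. This measure and its threshold were chosen after the data were seen. Of the 1704 flanked domains, 609 (35.7%) had 2 recessed sides, 777 (45.6%) had 1 and 318 (18.7%) had 0. The order of the numbers with 2 and with 0 depended on the stretch read: with the first 5 kb in place of 3 kb, 372 had 2 recessed sides and 525 had 0. As background, H3K36me3 is known to build up with distance from the start of a gene body and to be high towards its end; starts and ends of genes were not read here.

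The number of recessed sides was mostly the same in the libraries of the other cell type. It was equal in CD4 and CD8 at 1325 flanked domains (77.8%), namely at 491 of the 640 with 2 recessed sides in CD4, 589 of the 744 with 1, and 245 of the 320 with 0. For the 744 with 1 recessed side in CD4, the side that was lower in CD4 was also the lower in CD8 at 703 (94.5%). The near over far ratio in CD8 of these 744 had a median of 0.231 on the side lower in CD4 and 0.944 on the other. For the 640 the CD8 medians were 0.168 and 0.327, and for the 320 they were 0.734 and 1.30. The CD8 input on the same sides had medians between 0.861 and 0.994, so the input showed little of this shape.

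In the profiles of domains sorted in CD4 and measured in CD8, those with 1 recessed side rose to 5.75 times input at 3.5 kb on the higher side and to 2.08 times on the lower side. Those with 2 recessed sides stood at 2.87 and 1.68 times at that distance and reached 6.32 times only at 15.5 kb. Those with 0 recessed sides stood at 6.19 and 5.31 times at 3.5 kb and had passed 2 times input by 1.5 kb on both sides. Even the last group fell at the centre, to 1.48 and 1.39 times input.

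**Figure D3:**
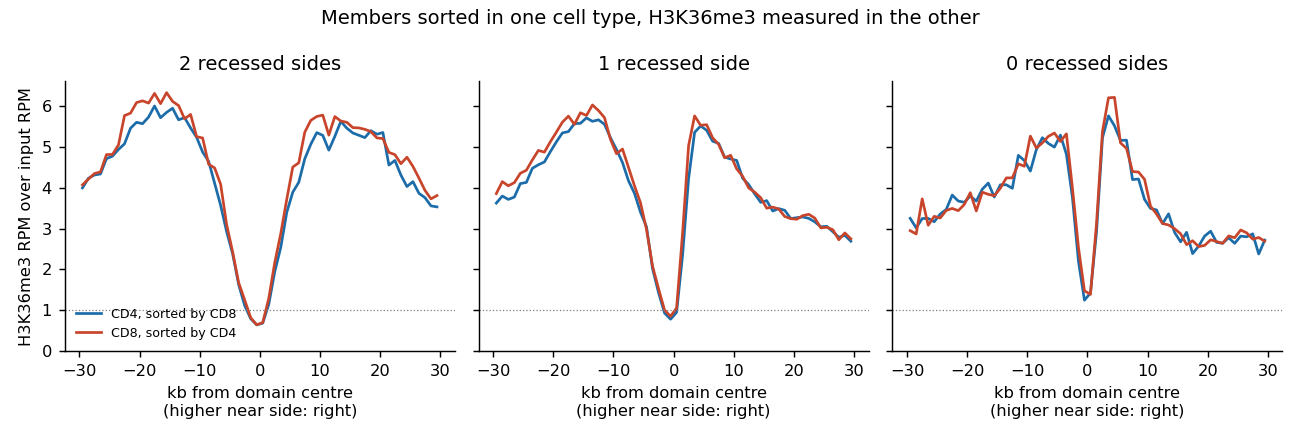
H3K36me3 RPM over input RPM (vertical) by distance in kb from the centre of flanked domains (horizontal), in 3 panels for 2, 1 and 0 recessed sides; domains were sorted and turned in one cell type and measured in the other (CD4 measured in blue, CD8 in red), with the higher near side on the right. With 1 recessed side the CD8 curve stands at 5.75 times input at 3.5 kb on the right and 2.08 times on the left.

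Recessed sides were counted in the same way in the other classes. At domains with H3K36me3 on 1 side, 438 of 4511 (9.71%) had 2 recessed sides and 2463 (54.6%) had 1. At domains with it on no side, where few reads make the ratio noisy, 74 of 2975 (2.49%) had 2. The share with 2 recessed sides was higher among the flanked domains, which differ from the others in H3K36me3 reads per side by the rule itself. Every domain with H3K36me3 on 1 side or on no side had by definition at least 1 side below 2 times input. The shares thus do not compare like sides, and the share among sides above that level alone is not given here. The part of read number in the difference was not tested.

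Many flanked domains had another H3K4me3 domain within the 20 kb on either side. None lay there at 648 (38.0%), while 705 had others on 1 side and 351 on both. The median distance to the nearest other domain was 13800 bp, against 19400 bp for domains with H3K36me3 on 1 side and 26000 bp for those with it on no side. It was at most 2 kb at 173 flanked domains (10.2%) and over 50 kb at 165 (9.68%). Flanked domains thus lay closer to other H3K4me3 domains than the other classes did.

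Among the 648 without another domain in their sides, 306 (47.2%) had 2 recessed sides, 281 (43.4%) had 1 and 61 (9.41%) had 0. The level of H3K36me3 inside relative to the sides was lower in this group, 0.178. Their sides had a median of 4.65 times input, against 3.80 times at the 209 with 3 or more other domains in their sides. By chromosome, the share of domains in the width range that were flanked ran from 12.9% on chromosome 18 (33 of 255) to 23.9% on chromosome 17 (115 of 482).

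H3K4me3 reads in the flanked domains ran from 2 to 4671 in CD4 with a median of 702, and from 5 to 4888 in CD8 with a median of 1113. The medians were 600 and 961 at domains with H3K36me3 on 1 side and 363 and 582 at those with it on no side, at the same median width of 1400 bp. The rule asked for H3K4me3 in the same way in all 3 classes, so this order was not fixed by it. The order of the classes was the same in both cell types, although the distributions overlapped widely: the interquartile range of CD4 reads was 397 to 1066 at flanked domains and 179 to 651 at domains with H3K36me3 on no side. Among the flanked domains themselves, the log2 of pooled H3K4me3 reads and the log2 level of the sides had an r of 0.16 (Spearman 0.18, n = 1704, with shared input and mappability). The median level of the sides was 3.78 times input at the 426 with the fewest H3K4me3 reads and 4.47 times at the 426 with the most.

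Within the domains H3K4me3 often had a trough, a place where the reads fell to at most 50% of the lower of the peaks on either side in 50 bp steps. A trough is the usual picture at active starts, where a stretch depleted of nucleosomes lies between positioned ones. It was found at 1151 flanked domains (67.5%) in CD4, at 1042 (61.2%) in CD8 and at 873 (51.2%) in both, and the troughs lay within 100 bp of each other at 703 of the 873 (80.5%). Shares at domains with H3K36me3 on 1 side were close to these, 65.1% and 56.4%, and at domains with it on no side 62.6% and 60.6%. The definition of the trough was chosen after the data were seen.

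Around the troughs found in CD4, CD8 H3K4me3 fell from 85.0 reads per domain and 50 bp at 225 bp on the side of the weaker H3K36me3 to 10.8 next to the trough, and rose again to 91.6 at 225 bp on the other side. Around the troughs found in CD8, the CD4 reads were 50.4, 8.93 and 49.5 at these places. The peaks on the sides of the trough were thus nearly equal in height. Domains with H3K36me3 on 1 side had less equal peaks, 61.1 and 78.2 reads in CD8 but 44.5 and 34.6 in CD4, where the higher peak was on the opposite side. The input fell there too, in CD8 from 0.108 reads per domain and 50 bp at 225 bp to 0.0330 next to the trough, and in CD4 from 0.128 to 0.102. The part of lower cover or mapping at the trough was not tested.

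**Figure D4:**
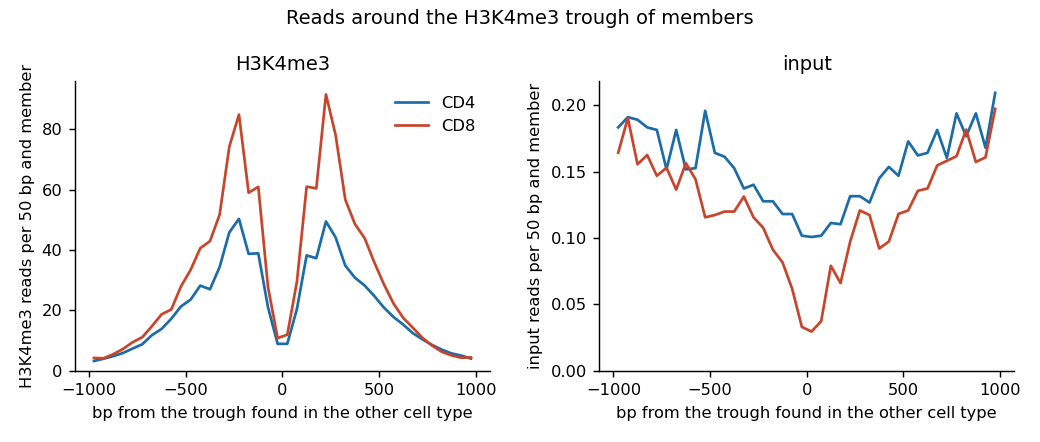
Reads per 50 bp and flanked domain (vertical) by distance in bp from the trough found in the other cell type (horizontal), for H3K4me3 on the left and the input on the right, in CD4 (blue) and CD8 (red); the side with more H3K36me3 in the other cell type is on the right. H3K4me3 peaks at 225 bp on both sides of the trough, at 85.0 and 91.6 reads in CD8 and 50.4 and 49.5 in CD4.

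H3K4me3 did not lean towards the stronger H3K36me3 side. The part of the domain between its centre and that side, chosen in the other cell type, held 49.3% of the CD4 reads (95% interval 49.2 to 49.4%) and 49.4% of the CD8 reads (49.4 to 49.5%). More than 50% of the reads lay in that part at 829 of 1704 flanked domains in each cell type. The central 20% of the domain's length held 25.7% of the CD4 reads (25.6 to 25.7%) and 29.7% of the CD8 reads (29.7 to 29.8%). The ends of a domain are weak by the rule that sets them, so an excess in the centre follows from it.

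H3K4me3 was compared between CD4 and CD8 by the ratio of reads in each domain, centred on its median over all 17327 domains, and called at 2-fold or more. The ratio was at least 2-fold higher in CD4 at 100 flanked domains (5.87%) and in CD8 at 72 (4.23%). Over all domains the shares called were 21.3% higher in CD4 and 6.94% higher in CD8, and over domains of the same width 7.5% and 5.76%. The shares were 6.10% and 4.94% at domains with H3K36me3 on 1 side and 10.5% and 7.87% at those with it on no side. The flanked domains thus had the lowest shares of the 3 classes in both directions, close to those with H3K36me3 on 1 side. The part of their higher H3K4me3 read numbers in this was not tested. The split between the directions depended on the scaling. Scaled to total reads, which moved every log2 ratio by -0.34, 66 were higher in CD4 and 259 in CD8, so that CD4 made up 20.3% of the called domains in place of 58.1%. With 1 read per start position the counts were 55 and 30.

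Called domains were mostly those with few H3K4me3 reads. Among the 426 with the fewest pooled reads (72 to 1113), 69 were higher in CD4 and 37 higher in CD8. Among the 426 with the most (2737 to 8578), 4 and 3 were. The share higher in CD4 was 12.6% (40 of 318) at flanked domains with 0 recessed sides, 5.53% (43 of 777) at those with 1 and 2.79% (17 of 609) at those with 2. The shares higher in CD8 were 4.40%, 4.89% and 3.28% in the same order. The median number of pooled H3K4me3 reads was 1746, 1797 and 1878 in these groups, but domains with very few reads were more common at 0 recessed sides: when sorted in CD4, the lowest 5% held at most 73.0 CD4 H3K4me3 reads there, against 167 at 2 recessed sides. The part of these weak domains in the difference was not tested. Among the 648 without another domain in their sides, 27 (4.17%) were higher in CD4 and 21 (3.24%) in CD8.

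The clearest domain higher in CD4 was chr19:11509401-11512000, with 474 H3K4me3 reads in CD4 and 12 in CD8, a 56.5-fold ratio after centring (32.0 to 110). With 1 read per start position it held 294 and 11, and its centred log2 ratio fell from 5.76 to 4.77, below that interval. Its inputs held 5 and 10 reads. Its H3K36me3 was not higher in CD4: the left side held 63 reads in CD4 and 105 in CD8, and the right side 204 and 360. A second such domain further along, chr19:11560401-11562200, had 394 and 34 H3K4me3 reads and 266 and 379 H3K36me3 reads over both sides. At both, H3K4me3 had more reads in CD4 and H3K36me3 more reads in CD8.

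At chr7:82800601-82801800 CD4 held 326 H3K4me3 reads and CD8 9, with 275 and 316 H3K36me3 reads on the sides. At chr6:127424001-127425800 the H3K4me3 reads were 254 and 10, with 504 and 425 H3K36me3 reads. At chr11:54381601-54384200 they were 755 and 43, with 260 and 307 H3K36me3 reads. H3K4me3 was thus far lower in CD8 at these domains, while the H3K36me3 totals of the sides were of like size. On each side alone, H3K36me3 was above 2 times input in both cell types at the second and the third of them, while the left side of the first was at 1.79 times in CD4 and 2.20 times in CD8. The last of them had 26 and 23 H3K36me3 reads inside, 4.55 times input, and sides that were not recessed, with near over far ratios of 1.01 and 0.899.

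The strongest domain higher in CD8 was chr8:124993801-124995000, with 17 H3K4me3 reads in CD4 and 971 in CD8, 39.9-fold (24.8 to 68.8). With 1 read per start position it held 15 and 335, and its centred log2 ratio of CD4 over CD8 moved from -5.28 to -4.35, outside that interval. Its H3K36me3 over both sides was 420 reads in CD4 and 296 in CD8. At chr17:25384601-25385800 H3K4me3 had 14 and 548 reads with H3K36me3 at 348 and 295. At chr15:100533601-100534800 it had 2 and 93, and at chr12:102136401-102138800 it had 140 and 1691, with H3K36me3 over both sides at 697 and 540 and at 396 and 380. As in the CD4 group, the H3K36me3 totals of the sides did not follow the H3K4me3 of the domain. On each side alone, H3K36me3 was above 2 times input in both cell types except at chr12:102136401-102138800. The left side there held 75 reads in CD4 and 129 in CD8, at 1.46 and 2.60 times input, and so was lower in CD4, as H3K4me3 was. In the CD4 group, chr7:82800601-82801800 and chr11:54381601-54384200 had no other H3K4me3 domain in their sides, while the rest had. All 4 domains named here had at least 1, the nearest 800 bp away at chr8:124993801-124995000 and 1800 bp away at chr15:100533601-100534800. The part of such neighbours in the H3K36me3 of the sides was not tested. These 4, the 5 named above and chr11:72907601-72909600 stayed past 2-fold with 1 read per start position and when scaled to total reads.

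At chr11:72907601-72909600 both marks were higher in CD8. H3K4me3 had 5 reads in CD4 and 177 in CD8, and H3K36me3 on the right side had 44 and 248, while the left side had 267 and 273. The next flanked domain to the right, chr11:72950401-72952000, had H3K36me3 at 87 and 463 reads on its left side and at 30 and 230 on its right side. Its ratio over both sides was 6.37-fold higher in CD8 (5.23 to 7.81), while its H3K4me3 was 366 and 414 reads. The inputs of these sides held 99 and 74 reads on the left and 98 and 84 on the right. This was the largest difference in H3K36me3 at any of the 1704 flanked domains, and in CD4 alone its sides were at 1.32 and 0.460 times input, below the threshold.

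H3K36me3 of the sides was at least 2-fold higher in CD4 at 2 flanked domains and in CD8 at 2, against 0.745% and 0.323% of all domains and 0.434% and 0.293% of those of the same width. Scaled to total reads the counts were 6 and 1, so that CD4 made up 85.7% of the called domains in place of 50%, and with input subtracted they were 25 and 11. The 90% of flanked domains in the middle had log2 ratios of CD4 over CD8 between -0.53 and 0.46, while for H3K4me3 these bounds were -0.95 and 1.14. The domains past 2-fold in CD4 were chr10:80846601-80848000, with 270 and 114 H3K36me3 reads, and chr9:121578401-121579400, with 520 and 229. The latter had 311 and 908 H3K4me3 reads, a ratio in the opposite direction. Besides the region on chromosome 11, 1 domain on chromosome 18 was past 2-fold in CD8, with 272 and 510 H3K36me3 reads.

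Among the 100 flanked domains with H3K4me3 higher in CD4, the centred H3K36me3 ratio had a median log2 of -0.16 and was below 0 at 71. Among the 72 with H3K4me3 higher in CD8, its median was -0.0047 and it was below 0 at 36. Over all 1704 the median was -0.07. The sides of the 100 stood at a median of 3.95 times input in CD4 and 4.10 times in CD8, and those of the 72 at 3.59 and 3.73 times. In the median, the sides carried H3K36me3 in the cell type with less H3K4me3 as well as in the other. The rule asked for at least 2 times input on the pooled sides, so these levels follow in part from it. Over the 1704 domains the CD4 over CD8 ratios of H3K4me3 and of H3K36me3 had an r of -0.11 (Spearman -0.11). The H3K36me3 ratios of the left and right side of a domain had an r of 0.431 (Spearman 0.442), and of 0.418 (0.379) over the 648 with no other domain in their sides. The sides share the library pair, and neighbouring domains share parts of their sides.

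**Figure D5:**
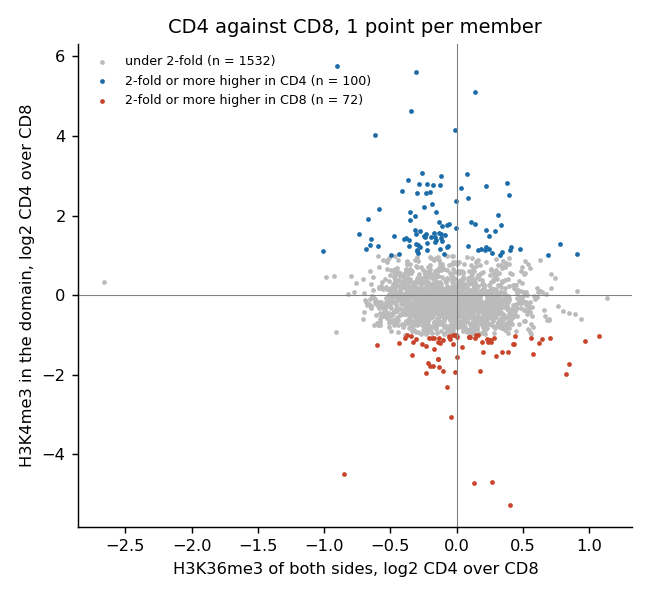
Log2 ratio of CD4 over CD8 for H3K4me3 in the domain (vertical) and for H3K36me3 of both sides together (horizontal), 1 point per flanked domain, each mark centred on its median over all domains. The 100 domains higher in CD4 (blue) and the 72 higher in CD8 (red) were chosen by their place on the H3K4me3 axis. On the H3K36me3 axis the 100 lie between -1.01 and 0.91 and the 72 between -0.85 and 1.08. The domain at -2.67 on that axis was called in neither direction for H3K4me3.

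The H3K4me3 domains with the fewest reads among those flanked were chr9:110798201-110799200 (19 CD4 and 53 CD8 reads), chr2:163903001-163904000 (68 and 5) and chr2:30113401-30114400 (20 and 57). The first of them had 14 and 12 H3K36me3 reads inside, 12.9 times input, a value that rests on only 2 and 1 input reads. Its near over far ratios were 2.07 and 4.19, so H3K36me3 ran through it without a dip. It is 1 of the 20 flanked domains whose H3K36me3 density inside was at least that of the sides.

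When the rule was applied to the libraries of one cell type, it found 1613 regions in CD4 and 1404 in CD8. Of the 1704 flanked domains, 1434 (84.2%) overlapped a region found in CD4 alone and 1233 (72.4%) one found in CD8 alone. Of the regions found in CD4 alone, 70.1% overlapped one found in CD8 alone, and of those found in CD8 alone 80.4% overlapped one found in CD4 alone.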

How the data were processed

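H3K4me3, H3K36me3 and input were sequenced from CD4 and CD8 T cells, 1 library each. The authors deposited the start and end positions of aligned 33 bp reads, without strand or score (per the labels' file list and the values). Per the submitters' processing notes the positions refer to mm9. The sources used here do not give the aligner or the treatment of repeated reads.

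A read was counted where its midpoint lay (start plus 16 bp). RPM used the reads of chromosomes 1 to 19, and an input of under 3 reads in a bin or side was raised to 3. Ratios of CD4 over CD8 used 0.5 added reads, were centred on the median over all domains, and were called at 2-fold with at least 20 reads. Exact (Clopper-Pearson) 95% intervals, for ratios conditional on the sum, cover counting error only, because the reads carry no molecular identifiers and may repeat a molecule.

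Named regions were the 5 with the most H3K36me3 reads on the weaker side, the 5 most even without another domain, for each mark the 5 higher in CD4 and the 5 higher in CD8 with the interval farthest from 1, and the 3 on either side of each threshold. The 3 domains with the fewest H3K4me3 reads were added after their values were seen. Members, lists, recessed sides and troughs were chosen with earlier results of these data known. No genome or annotation of mm9 was used here, so gene starts, gene lists, motifs and cell type markers were not analysed here. Coordinates are 1-based bin edges, and whether the deposited starts count from 0 or 1 was not checked. Calling was tested on simulated data. Scripts used matplotlib 3.10.9, SciPy 1.17.1, NumPy 2.4.6 and pandas 2.3.3 under Python 3.11.15.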

Additional observations from a re-analysis of the deposited data

Results flagged for a closer look

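Chromosome X was outside the rule, which read chromosomes 1 to 19. Applied to it, the rule kept 48 of 279 domains of 1000 to 2800 bp (17.2%), while 0 passed with either input in the place of H3K36me3. Their H3K4me3 reads had a median of 439 in CD4 (94 to 1502) and 691 in CD8 (3 to 1670). The H3K36me3 of their sides summed to 4.08 times input in CD4 and 4.87 times in CD8. They drew attention because they lie in data that no comparison above used. That their sides stand above the inputs follows from the rule that kept them.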

How the results depend on the processing

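Of 69 alternatives, 40 left a value within 1.5 times for a count or within its counting interval. No value has a spread between libraries, and no paired analysis was possible because each group holds 1 library. The number of flanked domains fell to 940 with sides at 3 times input, which the stricter fold explains, and ran from 1301 to 1977 under the others. H3K4me3 calls higher in CD4 and CD8 were 66 and 259 scaled to total reads. They were 55 and 30 with 1 read per start position (54 of the 100 and 29 of the 72 among them). The cause of these shifts was not tested. At 3-fold, which is stricter, they were 45 and 18. Without another domain nearby, where fewer domains were counted, they were 27 and 21. H3K36me3 calls were 6 and 1 scaled to total reads, 25 and 11 with input subtracted, 0 and 1 at 3-fold, 0 and 1 without another domain nearby, and 1 in CD8 with 1 read per start position. H3K36me3 inside over sides was 0.235 with 1 read per start position, 0.178 without another domain nearby and 0.142 without the input. The central 20% of the domain held 24.4% of H3K4me3 reads with 1 read per start position, 27.4% without another domain nearby, 25.7% in CD4 and 29.7% in CD8, against 28.2% pooled. Domains with none other in 10 kb numbered 1011. These alternatives were added after the data were seen: a near stretch of 5 kb left 372 with 2 and 525 with 0 recessed sides, and one of 2 kb left 202 with 0. Alternatives on gene starts and motifs were not run.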

Other observations

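The 28 domains whose sides both passed but lay 4-fold or more apart had stronger sides with a median of 8.05 times input and weaker sides with a median of 2.22 times. Their H3K4me3 reads had a median of 619 in CD4 and 1203 in CD8. The most uneven was chr7:7230401-7231400, with 28 and 23 H3K36me3 reads on the left against 394 and 438 on the right, a 16.3-fold difference. Its left side also held only 10 and 16 input reads, against 72 and 86 on the right. A pair of neighbours 2200 bp apart, chr5:139060401-139061400 and chr5:139063601-139064800, had the most reads on the stronger side: the left side of the first held 765 reads in CD4 and 1049 in CD8, and its right side 163 and 169.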
